A study of Mus musculus with 3 samples.

Results

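Polycomb group genes encode the subunits of chromatin complexes that keep developmental genes silent. The 9 genes described here are Ezh2, Ezh1, Eed, Suz12, Jarid2, Mtf2, Rnf2, Ring1 and Cbx7. They were chosen by gene symbol, and all 9 were listed in every library, out of 26887 genes listed in at least 1 library. RNA interactome analysis and sequencing (RIA-seq) recovers RNA that is held together with a chosen target RNA in fixed cells, by means of antisense oligonucleotides. The cells were mouse E14 ES cells (embryonic stem cells, strain 129/Ola), grown without feeder cells in the presence of LIF and fixed with glutaraldehyde. The control (Actb RIA-seq) was made with oligonucleotides to the mRNA of β-actin, Malat1 RIA-seq with oligonucleotides to a nuclear long noncoding RNA, and Tfrc RIA-seq with oligonucleotides to the transferrin receptor mRNA. Each condition had 1 library, so no spread between replicates could be measured, and any test here sets 1 library against another, not the conditions.

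Polycomb repressive complex 2 (PRC2) methylates lysine 27 of histone H3. Its catalytic subunit is Ezh2 or the related Ezh1, and Eed and Suz12 are needed for activity. Jarid2 and Mtf2 are accessory subunits that bring the complex to chromatin, and they belong to different forms of it. Polycomb repressive complex 1 (PRC1) ubiquitinates histone H2A through Rnf2 (RING1B) or Ring1 (RING1A), and Cbx7 is a chromodomain subunit that binds the mark made by PRC2. In ES cells both complexes sit on the promoters of silent lineage regulators. The mRNAs of these proteins were measured here, not the proteins or the complexes.

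The libraries held 10405209 counts (Actb RIA-seq), 10078439 (Malat1 RIA-seq) and 14553941 (Tfrc RIA-seq). A level of 3 counts, the floor used here, was 0.288, 0.298 and 0.206 per 1000000 counts in that order. Each targeted RNA was highest in its own library. Actb stood at 73038 per 1000000 counts there and at 889 and 924 in the others. Malat1 stood at 1834 in the control, 10657 in its own library and 7041 with the Tfrc oligonucleotides, and Tfrc at 43.5 in the control, 101 with the Malat1 oligonucleotides and 117 in its own library. All 10 ES cell markers examined (Pou5f1 and Nanog among them) were present in every library, at 106 to 1105 per 1000000 counts each. The 14 markers of endoderm, mesoderm, neural cells and fibroblasts summed to 32.4 to 51.9 per 1000000 counts per library. Thy1 was the highest of these (17.0 to 18.9), and Sox1 had no counts. The 10 genes with the most counts took 52.7% of the control counts, against 23.6% (Malat1) and 33.4% (Tfrc), and a share of the library total depends on them. Intervals are at the 95% level and cover counting error only, with every read taken as independent. Reads amplified by PCR are not independent molecules, so the intervals may be too narrow even for counting error.

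A gene could be listed in a library both under its Ensembl identifier, here the Ensembl-ID count, and under the reference name Genome, here the Genome count. Genes with 1 merged exon had a median Genome share of 0.145% (559 genes with at least 300 counts), and genes with introns of 21.7% (9023 genes). The sequences below show what separates spliced from unspliced RNA in 3 of the Polycomb genes: Jarid2, which had the highest Genome share, Eed, whose share differed most between libraries, and Ring1, which has the shortest introns. For each, 30 bases of a coding exon are in capitals and the next 30 bases in lower case. In unspliced RNA these are the start of the intron, and in spliced RNA the start of the next exon. The borders lie at chr13:44943761-44943820 on the plus strand (Jarid2), chr7:97110736-97110795 on the minus strand (Eed) and chr17:34158598-34158657 on the minus strand (Ring1) of NCBIM37. The introns that follow are 25861, 5842 and 199 bases long.
Jarid2 unspliced: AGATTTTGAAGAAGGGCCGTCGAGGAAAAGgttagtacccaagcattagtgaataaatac
Jarid2 spliced: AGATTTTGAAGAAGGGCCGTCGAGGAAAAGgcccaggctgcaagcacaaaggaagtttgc
Eed unspliced: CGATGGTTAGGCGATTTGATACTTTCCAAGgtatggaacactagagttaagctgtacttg
Eed spliced: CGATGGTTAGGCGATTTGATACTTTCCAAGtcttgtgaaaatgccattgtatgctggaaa
Ring1 unspliced: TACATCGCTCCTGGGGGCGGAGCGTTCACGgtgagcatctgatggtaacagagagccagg
Ring1 spliced: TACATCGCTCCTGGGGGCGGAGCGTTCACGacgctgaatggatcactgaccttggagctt
Whether a read was counted as Genome because it lay in an intron is not stated in the sources used here.

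Ezh2 and Ezh1, and Rnf2 and Ring1, are paralogs, so reads could in principle be split between them. The longest run of bases that the exons of each pair share is printed in capitals, with 10 bases on each side. All 4 stretches are coding.
Ezh2: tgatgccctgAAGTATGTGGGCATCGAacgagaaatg
Ezh1: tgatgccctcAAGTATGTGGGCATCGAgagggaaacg
Rnf2: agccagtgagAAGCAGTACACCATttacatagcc
Ring1: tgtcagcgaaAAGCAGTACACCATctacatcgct
The shared run was 17 nt for Ezh2 (chr6:47480562-47480578) and Ezh1 (chr11:101054275-101054291), whose exons align over 225 nt at 81.3% identity. It was 14 nt for Rnf2 (chr1:153318799-153318812) and Ring1 (chr17:34158659-34158672), for which no alignment of 100 nt at 80% identity was found. The exons of other Polycomb genes held sequence found elsewhere. Suz12 shares 886 nt at 84.5% identity with the pseudogene Gm14752, which had at most 1 Ensembl-ID count per library. Stretches of at least 100 nt at 80% identity or more also occur in the exons of 1430 other genes for Ezh2, 359 for Jarid2 and 79 for Ezh1, where reads are uncertain. None was found for Eed or Rnf2.

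The catalytic and core genes of PRC2 were counted at different depths, and positions given for genes are those of NCBIM37. Ezh2 (ENSMUSG00000029687), on chromosome 6 from 47480273 to 47545340 (minus strand, 20 merged exons), had summed counts of 859 in the control, 1059 (Malat1) and 1482 (Tfrc), or 82.6, 105 and 102 per 1000000 counts. The Ensembl-ID counts of Ezh2 were nearly level, at 70.2, 72.3 and 68.4 per 1000000 counts. Its Genome counts, 129, 330 and 487, carried the difference, and the Genome share of Ezh2 went from 15.0% (Wilson interval 12.8 to 17.6) in the control to 31.2% (28.4 to 34.0) and 32.9% (30.5 to 35.3). The lincRNA Gm17629 lies within the Ezh2 span on the other strand, shares 174 nt of exon with it and had 14, 91 and 101 Ensembl-ID counts in the same libraries. Since the counting is not stated to use strand, reads of the pair cannot be told apart where they overlap.

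Ezh1 (ENSMUSG00000006920), the other methyltransferase of PRC2, was far lower. It lies on chromosome 11 from 101052429 to 101087777 (minus strand, 21 merged exons) and had 108, 239 and 234 summed counts, or 10.4 (8.60 to 12.5), 23.7 (20.9 to 26.9) and 16.1 (14.2 to 18.3) per 1000000 counts in Actb, Malat1 and Tfrc RIA-seq. The 3 intervals did not overlap on library totals, and Malat1 RIA-seq was the highest. Scaled to a median gene of 1, the fold of Ezh1 in Tfrc RIA-seq over the control was 0.994 (0.791 to 1.25). This interval includes 1. Per kb of merged exon and per 1000000 counts, the Ensembl-ID level of Ezh1 was 1.25, 2.49 and 1.69, against 11.3, 11.7 and 11.0 for Ezh2. The Genome share of Ezh1 was 10.2%, 21.8% and 21.8%, on 11, 52 and 51 Genome counts.

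Eed (ENSMUSG00000030619), a WD40 protein that binds trimethylated histone H3, lies on chromosome 7 from 97103166 to 97129493 (minus strand, 12 merged exons). Its summed counts were 1118, 1677 and 2269, or 107, 166 and 156 per 1000000 counts. The Ensembl-ID counts, 1021, 1109 and 1738, made up most of them, but the Genome counts of Eed were 97, 568 and 531. The Genome share was 8.68% (7.16 to 10.5) in the control, the lowest of the 9 genes, 33.9% (31.6 to 36.2) in Malat1 RIA-seq and 23.4% (21.7 to 25.2) in Tfrc RIA-seq. All 3 libraries thus stood apart in the Genome share of Eed. The share over all counts of a library had the same order, at 5.26%, 19.04% and 15.1%.

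Suz12 (ENSMUSG00000017548), which holds PRC2 together, lies on chromosome 11 from 79806608 to 79847625 (plus strand, 17 merged exons). It had 695, 1089 and 1667 summed counts, or 66.8, 108 and 115 per 1000000 counts. Malat1 and Tfrc RIA-seq overlapped in their intervals (102 to 115 and 109 to 120), and the control was lower (62.0 to 72.0). The Genome share of Suz12 was 14.8%, 32.1% and 33.4%. The lincRNA Gm16706 lies opposite to Suz12 over 12515 bases, of which 178 are exon in both genes. It had 31, 106 and 134 Ensembl-ID counts.

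Jarid2 (ENSMUSG00000038518), the accessory subunit with an inactive Jumonji domain, had more counts than the other 8 genes together in Malat1 and Tfrc RIA-seq. It lies on chromosome 13 from 44824843 to 45017012 (plus strand, 22 merged exons) and holds 183 kb of intron. Its summed counts were 4740 in the control, 14489 (Malat1) and 13498 (Tfrc), or 456 (443 to 469), 1438 (1414 to 1461) and 927 (912 to 943) per 1000000 counts. This was 43.6%, 58.4% and 50.8% of all counts of the 9 genes. Both kinds of count differed in the same order, with Ensembl-ID levels of 323, 829 and 504 and Genome levels of 132, 609 and 424 per 1000000 counts (1377, 6133 and 6166 Genome counts). The Genome share of Jarid2 was 29.1% (27.8 to 30.4), 42.3% (41.5 to 43.1) and 45.7% (44.8 to 46.5), the highest of the 9 genes in each library. The snoRNA gene SNORA61 in the span of Jarid2 had no counts of its own.

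Mtf2 (ENSMUSG00000029267), a Tudor-domain accessory subunit, lies on chromosome 5 from 108494693 to 108538023 (plus strand, 19 merged exons). It had 1135, 1884 and 2602 summed counts, or 109, 187 and 179 per 1000000 counts, and Genome shares of 12.8%, 28.4% and 24.7%. The 395 nt of exon that Mtf2 shares with Tmed5 on the other strand make its Ensembl-ID counts uncertain there. Tmed5 had 843, 1466 and 1571 Ensembl-ID counts.

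Of the E3 ligase genes of PRC1, Rnf2 had the higher counts. Rnf2 (ENSMUSG00000026484), on chromosome 1 from 153316536 to 153347953 (minus strand, 7 merged exons), had 590, 931 and 1214 summed counts, or 56.7, 92.4 and 83.4 per 1000000 counts, with Genome shares of 14.9%, 35.3% and 28.1%. Ring1 (ENSMUSG00000024325), on chromosome 17 from 34157737 to 34161625 (minus strand, 5 merged exons), had 105, 182 and 246 summed counts, or 10.1, 18.1 and 16.9 per 1000000 counts. Per kb of merged exon, the Ensembl-ID level of Rnf2 in the control was 15.9 per 1000000 counts and that of Ring1 was 2.79. The Genome share of Ring1 was 10.5% (5.95 to 17.8), 21.4% (16.1 to 28.0) and 14.6% (10.8 to 19.6), on only 11, 39 and 36 Genome counts, and its intervals overlapped.

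Cbx7 (ENSMUSG00000053411), the chromodomain subunit of PRC1, lies on chromosome 15 from 79746237 to 79801549 (minus strand, 8 merged exons). Its summed counts were 1510, 3242 and 3349, or 145 (138 to 153), 322 (311 to 333) and 230 (222 to 238) per 1000000 counts. As for Jarid2 and Ezh1, the 3 intervals did not overlap on library totals, and the Tfrc library lay between the others. Scaled to a median gene of 1, the fold of Cbx7 in Tfrc RIA-seq over the control was 1.02 (0.957 to 1.08). This interval includes 1. The Genome share of Cbx7 was 12.3%, 28.1% and 23.9%.

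**Figure D1:**
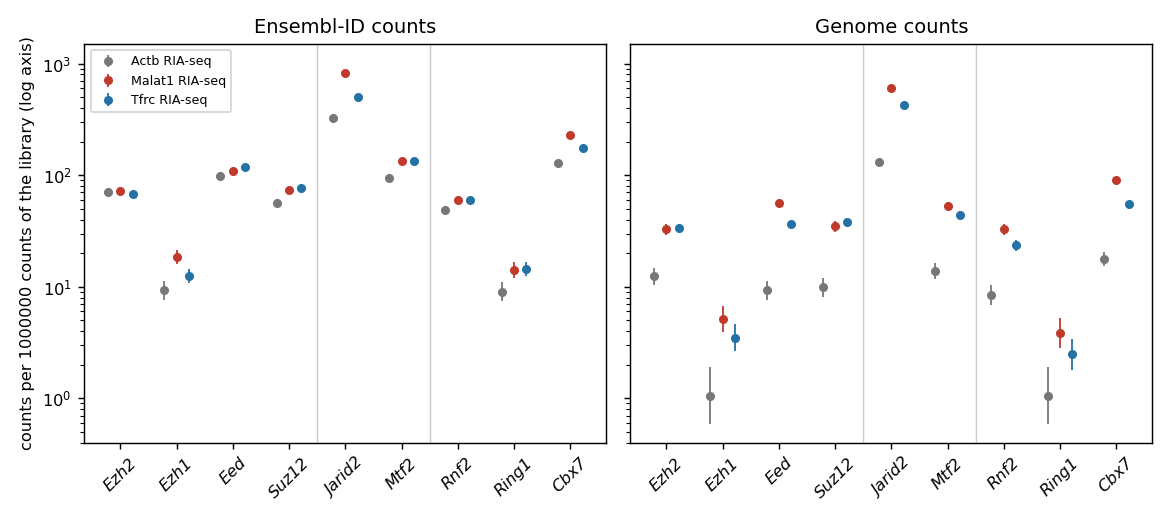
Level of each Polycomb gene in the 3 libraries, as counts per 1000000 counts of the library on a log axis, for Ensembl-ID counts (left) and Genome counts (right). Points are single libraries and bars are 95% counting intervals; Jarid2 is the highest gene in both panels, and Ezh1 and Ring1 are the lowest.

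Malat1 RIA-seq was then compared with the control, the question being which RNAs are recovered more with the Malat1 oligonucleotides than with the control. On library totals all 9 Polycomb genes had a fold above 1, from 1.27 for Ezh2 (1.16 to 1.39) to 3.16 for Jarid2 (3.05 to 3.26). However, the median of all 14572 genes counted 10 times or more in each library was already 1.82, a log2 shift of 0.86. With the median gene set to 1, the direction flipped for 6 of the 9, and Jarid2 (log2 difference from the median gene 0.79), Ezh1 (0.33) and Cbx7 (0.28) lay above it, whereas with equal 75th percentiles or without the 10 largest genes it flipped for Ezh2 and Eed. The genes below the median gene were Ezh2 (−0.52), Eed (−0.23), Suz12 (−0.17), Rnf2 (−0.16), Mtf2 (−0.09) and Ring1 (−0.02). On this scale the fold intervals of Mtf2 (0.875 to 1.01) and Ring1 (0.773 to 1.25) included 1. That of Ezh1 (1 to 1.58) began at 1. A fold of 2 or more was found for 3 of the 9, namely Jarid2, Ezh1 (2.28, 1.82 to 2.87) and Cbx7 (2.22, 2.08 to 2.36), beside 42.1% of all genes. The two-sided chi-square test of a gene's counts against all other counts, with Benjamini-Hochberg adjustment over all genes, called 9 of the 9 higher in Malat1 RIA-seq and 0 lower, beside 73.9% and 4.45% of all genes. The fold of Jarid2 was higher than that of 87.6% of all genes, and that of Ezh2 higher than that of 23.4%.

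In the order of these folds, Ezh2 stood below its neighbour Eed (1.55) by a factor of 1.22 (1.08 to 1.37), and Jarid2 stood above its neighbour Ezh1 by a factor of 1.38 (1.10 to 1.74). Between them (Suz12 1.62, Rnf2 1.63, Mtf2 1.71, Ring1 1.79, Cbx7 and Ezh1), each step from a gene to its neighbour lay within counting error. Genes further apart could still differ. The interval of Cbx7 (2.08 to 2.36) lay above those of Suz12 (1.47 to 1.78), Rnf2 (1.47 to 1.81) and Mtf2 (1.59 to 1.845). It overlapped those of Ring1 and Ezh1. Of the paralogs, the fold of Ezh1 exceeded that of Ezh2 by a factor of 1.80 (1.41 to 2.29), or 1.93 (1.48 to 2.52) for Ensembl-ID counts alone. For Genome counts alone the factor was 1.85 (0.935 to 3.65), an interval that includes 1. The fold of Rnf2 was 0.910 times that of Ring1 (0.701 to 1.18), an interval that leaves room for a difference in either direction. Between the accessory subunits, the fold of Jarid2 was 1.84 times that of Mtf2 (1.70 to 2.00). The ratio was 1.825 (1.67 to 2.00) for Ensembl-ID counts and 1.205 (0.994 to 1.46), an interval that includes 1, for Genome counts. These ratios of folds do not depend on how the libraries are scaled.

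Tfrc RIA-seq was compared with the same Actb library, so both comparisons share their control. All 9 genes again had a fold above 1 on library totals, from 1.23 for Ezh2 (1.13 to 1.34) to 2.04 for Jarid2 (1.97 to 2.10), beside a median of 1.56 over 14691 genes, a log2 shift of 0.64. With the median gene set to 1, the direction flipped for Ezh2, Ezh1, Eed and Rnf2. On this scale the intervals of Ezh1 (0.791 to 1.25) and Rnf2 (0.855 to 1.04) included 1, and that of Eed was 0.866 to 0.9999. Above the median gene, those of Mtf2 (0.981 to 1.13), Ring1 (0.855 to 1.35) and Cbx7 (0.957 to 1.08) also included 1. The log2 differences ran from −0.34 for Ezh2 to 0.39 for Jarid2. With equal 75th percentiles or without the 10 largest genes the direction flipped for Ezh2. Jarid2 was the 1 gene of the 9 at a fold of 2 or more, beside 28.6% of all genes. The chi-square test called 9 of the 9 higher and 0 lower, beside 68.0% and 3.66% of all genes. Suz12 had a fold of 1.72 (1.57 to 1.87), Ring1 of 1.67 (1.33 to 2.10), Mtf2 of 1.64 (1.53 to 1.76), Cbx7 of 1.59 (1.49 to 1.69) and Ezh1 of 1.55 (1.23 to 1.95). Those of Rnf2 (1.47) and Eed (1.45) were lower, and 6 of the 8 steps between neighbours in this order lay within counting error. Ezh1 exceeded Ezh2 by a factor of 1.26 (0.985 to 1.60), an interval that includes 1. For Ensembl-ID counts alone the factor was 1.38 (1.06 to 1.80), which excludes 1, and for Genome counts 1.23 (0.622 to 2.42).

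**Figure D2:**
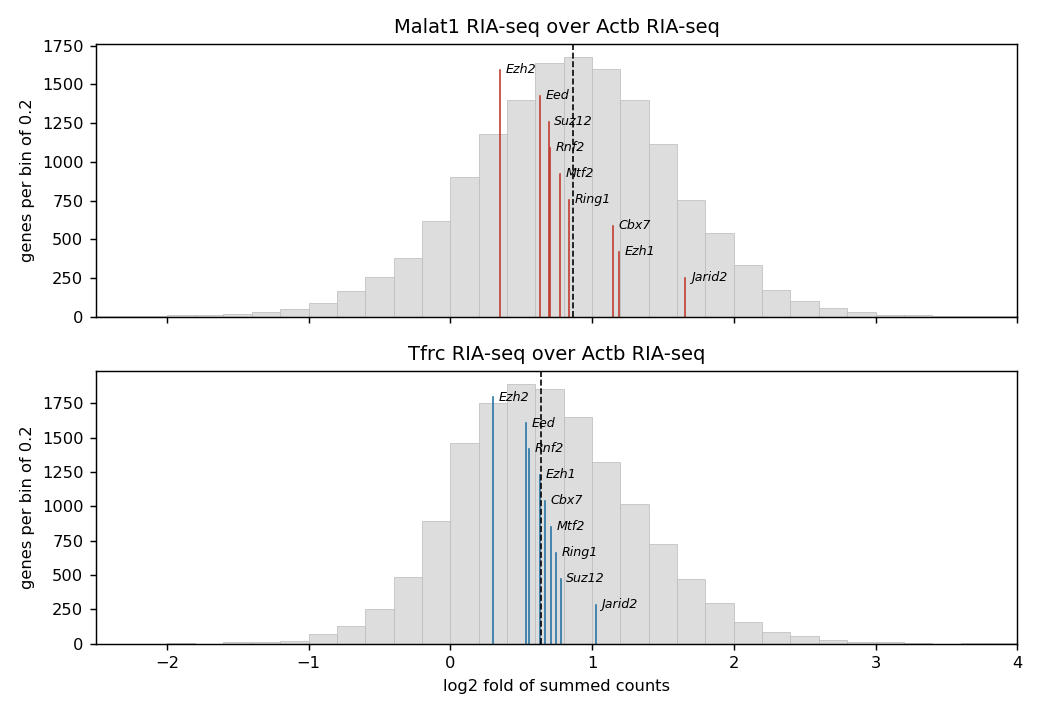
Log2 fold of summed counts over the control for all genes counted 10 times or more in each library (grey bars, number of genes per bin) and for each Polycomb gene (coloured lines), in Malat1 RIA-seq (top) and Tfrc RIA-seq (bottom). The dashed line is the median gene (log2 fold 0.86 and 0.64); in Malat1 RIA-seq Jarid2 lies to the right of it and Ezh2 to the left.

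Between the target libraries, Malat1 RIA-seq over Tfrc RIA-seq, the folds were smaller. Jarid2 had a fold of 1.55 (1.51 to 1.59), Ezh1 of 1.48 (1.23 to 1.77) and Cbx7 of 1.40 (1.33 to 1.47), all above the median of 1.15 over 16430 genes, a log2 shift of 0.21. The step from Rnf2 to Cbx7 was a factor of 1.26 (1.14 to 1.39), and no other step between neighbours exceeded counting error. The chi-square test called Jarid2, Ezh1, Cbx7 and Rnf2 higher (fold of Rnf2 1.11, 1.02 to 1.21, which fell to 0.960, 0.882 to 1.05, with the median gene set to 1). That is 4 of the 9 higher and 0 lower, beside 35.8% and 10.1% of all genes, and 3 higher, without Rnf2, when every gene with a count above 0 in both libraries was tested. Eed (1.07), Ring1 (1.07), Mtf2 (1.05), Ezh2 (1.03) and Suz12 (0.943) were not called, and the first 4 of these also fell below 1 with the median gene set to 1. Of these 4, the interval of Ring1 (0.765 to 1.12) then included 1. None of the 9 reached a fold of 2, beside 4.35% of all genes, and these folds rest on the same Malat1 and Tfrc libraries as those above.

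The kinds of count gave different folds. For Malat1 relative to the control, the Ensembl-ID folds ran from 1.03 for Ezh2 (0.930 to 1.14) to 2.57 for Jarid2 (2.46 to 2.67), and the Genome folds from 2.64 for Ezh2 (2.16 to 3.24) to 6.05 for Eed (4.87 to 7.50). For each of the 9 the Genome fold was the larger, which means that the Genome share was higher in Malat1 RIA-seq. The same was true of 93.4% of the 7496 genes whose counts of each kind reached 10 in each library. In Tfrc RIA-seq the Genome share was also higher in 9 of the 9, beside 92.0% of 7549 genes, although the interval for Ring1 included no difference. The Ensembl-ID folds there ran from 0.975 (Ezh2, 0.886 to 1.07) to 1.60 (Ring1, 1.25 to 2.04). The Genome folds of Tfrc RIA-seq ran from 2.34 (Ring1, 1.19 to 4.60) to 3.91 (Eed, 3.15 to 4.86). Between Malat1 and Tfrc RIA-seq the share was higher in Malat1 RIA-seq for 5 of the 9, beside 63.1% of 10137 genes.

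**Figure D3:**
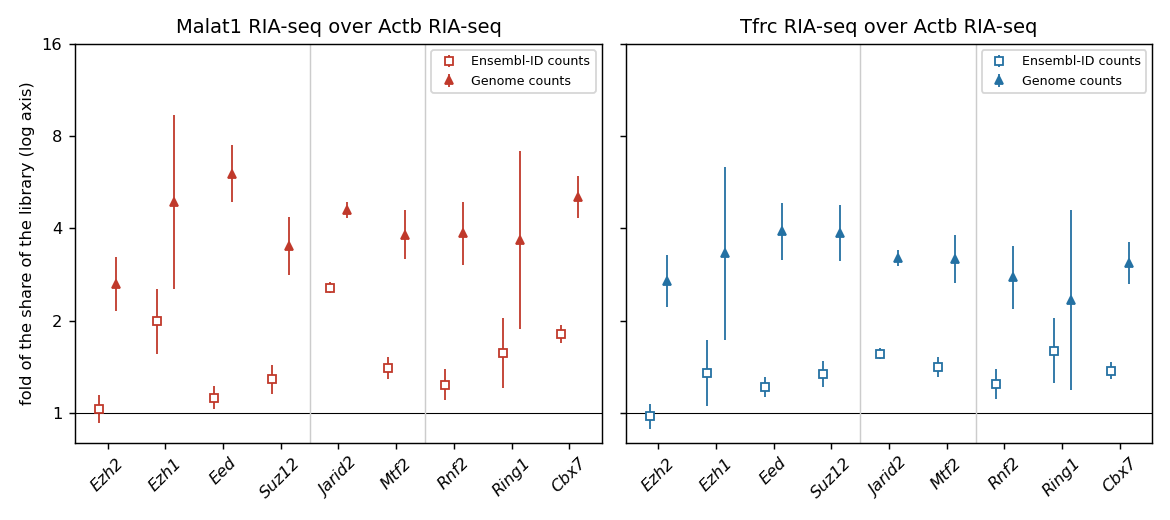
Fold of each Polycomb gene over the control on a log axis, for Ensembl-ID counts (open squares) and Genome counts (filled triangles), in Malat1 RIA-seq (left) and Tfrc RIA-seq (right), with 95% counting intervals. The Genome fold lies above the Ensembl-ID fold for all 9 genes; the gap is widest for Eed in Malat1 RIA-seq (6.05 against 1.12).

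The odds ratio of Genome to Ensembl-ID counts between libraries measures this gap without any scaling of the libraries. For Malat1 relative to the control it was 5.39 for Eed (4.28 to 6.79), higher than that of 93.2% of the 7496 genes, whose median was 2.51. Jarid2 had the smallest odds ratio of the 9, 1.79 (1.67 to 1.92), higher than that of 27.1% of those genes. The other 7 lay between 2.33 (Ring1) and 3.12 (Rnf2). In Tfrc RIA-seq the odds ratio of Eed was 3.22 (2.56 to 4.05) beside a median of 2.19, and those of Suz12 (2.88) and Ezh2 (2.77) came next. Between Malat1 and Tfrc RIA-seq the median odds ratio over 10137 genes was 1.15. That of Eed was 1.68 (1.46 to 1.93), higher than that of 79.6% of those genes. That of Jarid2 was 0.873 (0.833 to 0.915), higher than that of 25.2%.

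**Figure D4:**
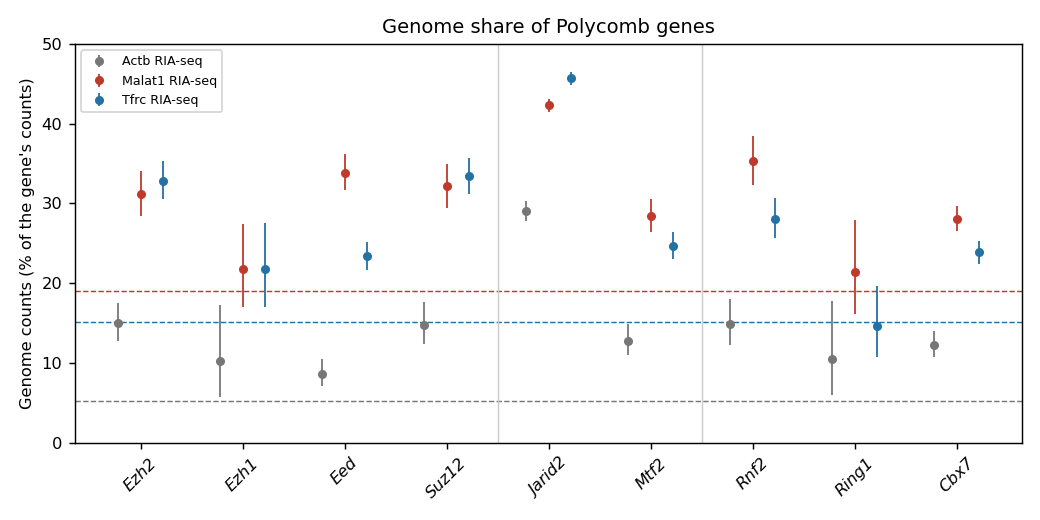
Genome counts as a percentage of each Polycomb gene's own counts in Actb (grey), Malat1 (red) and Tfrc RIA-seq (blue), with Wilson intervals; dashed lines are the library-wide shares (5.26%, 19.04% and 15.1%). Every gene has its lowest share in the control, and Jarid2 has the highest share in each library.

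Summed over the 9 genes, Genome counts were 19.8% of 10860 counts in the control, 37.3% of 24792 in Malat1 RIA-seq and 36.2% of 26561 in Tfrc RIA-seq. Jarid2 gave 64.2% to 66.3% of these Genome counts, and without it the shares were 12.6%, 30.2% and 26.4%. The median of the 9 genes was 12.8%, 31.2% and 24.7%, beside 11.5%, 27.5% and 25.5% for the median gene of each library. Over all counts of a library the shares were 5.26%, 19.04% and 15.1%.

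Genome share was also set against intron length, summing the 3 libraries. Across 9023 genes with introns and at least 300 counts, the share went with annotated intron length (Spearman's rho 0.705, as a description, since genes share libraries and are not replicates). Among the 9 Polycomb genes rho was 0.633, and 0.214 over the 7 without Ring1 and Jarid2, which lie at the ends. Jarid2, at 41.8%, was below the median of the 1230 protein-coding genes whose introns add up to 100 kb or more (61.8%, quartiles 43.9 and 77.1). Ring1 has 0.646 kb of annotated intron and a share of 16.1%, which was above 96.7% of the 240 protein-coding genes with less than 1 kb (median 1.34%). The Genome counts of Ring1 per kb of intron were 58.8%, 137% and 86.1% of its Ensembl-ID counts per kb of exon in the control, Malat1 and Tfrc libraries. Whether its Genome counts came from annotated introns was not tested. The other 7 genes, with 24.1 to 58.9 kb of intron and shares of 19.6% to 29.3%, lay between the quartiles of genes of similar intron length.

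**Figure D5:**
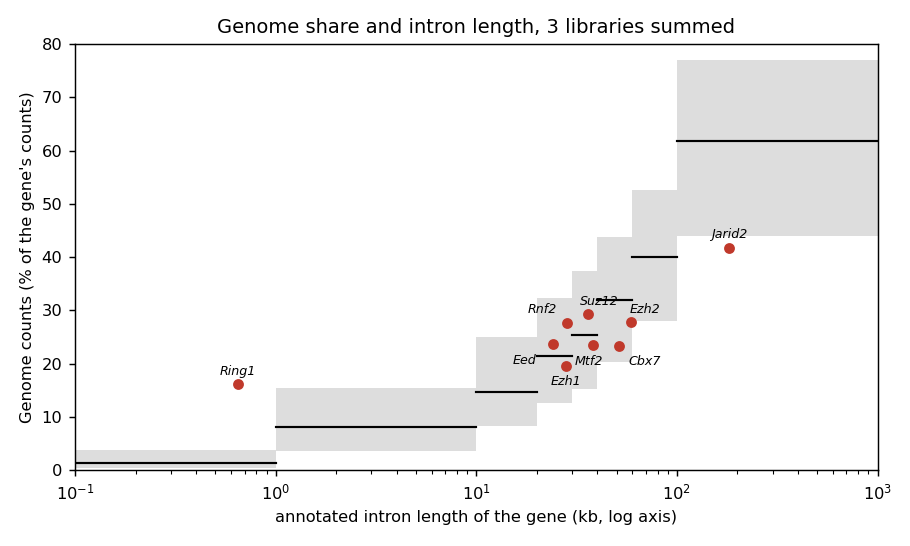
Genome share (3 libraries summed) against annotated intron length on a log axis: black lines are medians and grey bands the quartiles of protein-coding genes with at least 300 counts, in bins of intron length, and red points are the Polycomb genes. Ring1 (16.1%) lies above its band, Jarid2 (41.8%) just below its band, and the other 7 genes inside theirs.

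Per length, Genome counts were sparse beside Ensembl-ID counts. In the control the Genome counts per kb of intron were 0.874% of the Ensembl-ID counts per kb of merged exon for Eed, 1.03% for Cbx7 and 3.02% for Ezh1, with the other genes except Ring1 in between. In Malat1 RIA-seq the same ratio was 4.71% for Eed, 2.88% for Cbx7 and 7.41% for Ezh1, and in Tfrc RIA-seq 2.81%, 2.31% and 7.43%. The median over protein-coding genes whose introns add up to 10 kb or more, with at least 100 Ensembl-ID counts, was 1.79%, 5.40% and 4.96%. Apart from Ring1, Cbx7 and Eed lay under this median in all 3 libraries, and Ezh1 and Suz12 above it. In the control Ezh1 had 97 Ensembl-ID counts, fewer than that minimum, and 11 Genome counts. By Ensembl-ID counts per kb of exon and per 1000000 counts, Eed (44.2), Cbx7 (33.6) and Jarid2 (33.3) were the highest in the control, and in Malat1 RIA-seq Jarid2 (85.3) and Cbx7 (61.0) stood above Eed (49.6).

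A wider list of 33 other Polycomb genes was examined in the same way, and 31 reached 10 counts in each library compared. For Malat1 relative to the control the median fold of the 31 was 1.65, beside 1.82 for all genes. A fold of 2 or more was reached by 9 of the 31, beside 42.1% of all genes, and 23 were called higher and 2 lower, beside 73.9% and 4.45%. The lower ones were L3mbtl2 (0.733, 0.624 to 0.860), a subunit of a variant PRC1, and E130012A19Rik (0.747, 0.674 to 0.828), which encodes the PRC2 partner Epop and has no annotated intron. Cbx2 stood at 1.01 (0.815 to 1.25) on library totals, below the median gene (1.82). At the other end, among genes with at least 100 counts, were Phc3, a Polyhomeotic subunit of PRC1 (3.62, 3.02 to 4.35), Cbx6 (2.65, 2.27 to 3.10) and Asxl2, a partner of the H2A deubiquitinase Bap1 (2.54, 2.31 to 2.80).

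Relative to the control, for Tfrc, the 31 genes had a median fold of 1.55 beside 1.56 for all genes. A fold of 2 or more was reached by 5, beside 28.6% of all genes, and 23 were called higher and 1 lower, beside 68.0% and 3.66%. The latter was L3mbtl2 (0.849, 0.737 to 0.977). E130012A19Rik (0.941) and the histone chaperone gene Rbbp7 (0.961) had intervals that included 1 on library totals and lay below the median gene (1.56). Phc3 (2.71, 2.26 to 3.25), Asxl2 (2.30, 2.10 to 2.52) and Mga, a transcription factor of a variant PRC1 (1.87, 1.76 to 1.98), had the highest folds among genes with at least 100 counts. With the 3 libraries summed, 25 genes of the list had at least 300 counts and a median Genome share of 21.3%. The lowest shares were those of E130012A19Rik (1.86%), Cbx2 (1.97%) and Rbbp4 (3.69%), and the highest those of Phc2 (54.5%), Yaf2 (51.8%) and Rybp (38.8%). In Malat1 RIA-seq over Tfrc RIA-seq the median fold of the 31 was 1.02 beside 1.15, with 10 called higher and 5 lower, beside 35.8% and 10.1% of all genes.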

How the data were processed

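The authors deposited, for each library, a table of raw read counts per gene, without normalization, and a gene with no read has no entry. The submitters' processing notes name Bowtie 0.12.7 and the builds mm9 and NCBIM37, with no role given. The counter, the use of strand and the treatment of reads with several matches are not given in the sources used here. Per the labels, RNA was treated with DNase and cDNA was made with an Ovation V2 kit. Ensembl-ID and Genome counts of each gene symbol and chromosome were kept apart, then summed and divided by the library total (10078439 to 14553941 counts), with a pseudocount of 0. Fold intervals (95%) came from the counting error of the log ratio, share intervals from Wilson's method. The chi-square test, which the study names, was two-sided without continuity correction, replaced by Fisher's exact test for expected counts below 5, and p-values were adjusted by Benjamini-Hochberg over every gene that reached 10 counts in each library (threshold 0.05). With 1 library per condition it compares libraries. Folds, intervals and the test were checked on simulated Poisson counts with known changes. Those counts varied by counting error only and had no shift of the median gene, so the check does not cover these. Spans, merged exons and introns came from the GENCODE annotation of NCBIM37, in which 98.6% of 24080 identifiers were found; shared exon sequence was searched with blastn at 80% identity over 100 nt, and sequences were read from the NCBIM37 genome.

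The 9 genes and the other lists were chosen with earlier results of these data known. Named beside them were the targets, the 3 highest and 3 lowest other Polycomb genes by fold (at least 100 counts) and by Genome share (at least 300 counts), the highest and lowest Trithorax-group genes, and genes that overlap or share exon sequence with the 9. Alternatives were other scalings (median gene, 75th percentile, total without the 10 largest genes), a pseudocount of 1, either kind of count alone, minimums of 50 counts or above 0, Fisher's exact test, another background for the Genome share and a share relative to that of the library. Leaving out a replicate was not possible. Searches used BLAST 2.17.0, statistics scipy 1.17.1 with numpy 2.4.6 and pandas 2.3.3 under Python 3.11.15, and plots matplotlib 3.10.9.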

Additional observations from a re-analysis of the deposited data

How the results depend on the processing

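With 1 library per condition preparation and target cannot be told apart, and counts of 11 (Genome, Ezh1 and Ring1 in the control) limit those shares. The scaling decided most directions. For Malat1 over Actb RIA-seq the median fold of the 9 genes, 1.71, became 0.942 with the median gene at 1, 1.08 with equal 75th percentiles and 1.07 without the 10 largest genes. It became 1.41 for Ensembl-ID counts, 3.86 for Genome counts and 1.07 for Genome counts on their own total. The number of genes at a fold of 2 or more, 3, became 0, 0, 0, 1, 9 and 0 in the same order. With the median gene at 1, Ezh2 stood at 0.699, Eed at 0.851, Suz12 at 0.889, Mtf2 at 0.942, Rnf2 at 0.895 and Ring1 at 0.983. With equal 75th percentiles Ezh2 stood at 0.798 and Eed at 0.972, without the 10 largest genes at 0.796 and 0.968, and on the Genome total Ezh2 at 0.729 and Suz12 at 0.968.

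For Tfrc over Actb RIA-seq the median, 1.59, became 1.02, 1.28, 1.13, 1.35, 3.17 and 1.10 under the same 6 changes, and the number at 2 or more, 1, became 0, 0, 0, 0, 9 and 0. Ezh2 fell below 1 under all but Genome counts on the library total (0.791, 0.995, 0.879, 0.975 and, on the Genome total, 0.939). With the median gene at 1, Ezh1 stood at 0.994, Eed at 0.931 and Rnf2 at 0.944, and on the Genome total Rnf2 at 0.964 and Ring1 at 0.814. For Malat1 over Tfrc RIA-seq the median, 1.07, became 0.926, 0.831, 0.938 and 0.996 (Ensembl-ID counts), and 1.44 for Genome counts. Eed became 0.926, 0.830, 0.937 and 0.921, and Rnf2 0.960, 0.861, 0.972 and 0.996. Ezh2 (0.895, 0.803 and 0.906), Mtf2 (0.907, 0.813 and 0.918) and Ring1 (0.926, 0.831 and 0.938), which were not called, also lay below 1 under the 3 scalings. Jarid2 and Cbx7 stayed above 1 in all 3 comparisons under every one of these changes. For Tfrc over Actb RIA-seq with the median gene at 1, however, Cbx7 stood at 1.02 (0.957 to 1.08), an interval that includes 1.

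A pseudocount of 1 changed no direction of the 9 genes. Fisher's exact test and a minimum of 50 counts left the numbers of the 9 called higher and lower as they were. With a minimum above 0, 3 genes in place of 4 were called higher for Malat1 over Tfrc RIA-seq, the call of Rnf2 being lost. With these minimums of 50 and above 0, the share of all genes at a fold of 2 or more for Malat1 over Tfrc, 4.35%, became 2.36% and 9.13%. Against genes with introns and 300 counts, 7 genes lay above the median Genome share in Tfrc RIA-seq in place of 4. Relative to the library-wide odds of Genome counts, the Genome share was higher in 1 gene in place of 9 for Malat1 over Actb RIA-seq (Eed), in 1 in place of 9 for Tfrc over Actb RIA-seq (Eed, odds ratio 3.22 against 3.21), and in 3 in place of 5 for Malat1 over Tfrc RIA-seq (Eed, Rnf2 and Ring1). With a ratio of shares in place of odds, an alternative chosen after seeing the data, these were 1, 0 and 2. What causes these differences was not tested.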

Other observations

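Trithorax-group proteins act against Polycomb silencing, and Kdm6a and Kdm6b remove the mark that PRC2 makes. All 12 genes of a list of these had at least 10 counts in every library. With Malat1 against the control their median fold was 1.75, beside 1.71 for the 9 Polycomb genes and 1.82 for all genes, and 4 of the 12 reached a fold of 2, beside 42.1% of all genes. The highest was Mll1, a histone H3 lysine 4 methyltransferase gene (3.70, 3.45 to 3.96), and the lowest Men1, a partner of Mll1 (1.16, 0.966 to 1.39). With Tfrc against the control the median was 1.48 beside 1.56 for all genes, with Ash1l the highest (2.42, 2.14 to 2.73) and Dpy30 the lowest (1.02, 0.925 to 1.12).

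Kdm6b, chosen after its values were seen, had 1168, 3852 and 2415 summed counts in Actb, Malat1 and Tfrc RIA-seq, a fold of 3.41 (3.19 to 3.63) in Malat1 RIA-seq, where that of Jarid2 was 3.16. In Tfrc RIA-seq its fold was 1.48 (1.38 to 1.58), with the median gene (1.56) inside its interval, and that of Jarid2 was 2.04. Its Genome share over the 3 libraries was 1.67%, against 41.8% for Jarid2. Kdm6a, its paralog, had the highest Genome share of the list, 47.8%, with 109 kb of annotated intron against 8.21 kb for Kdm6b.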
